A study of Mus musculus with 6 samples.

Results

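The white and brown fat genes described here are 10 genes: 8 of white fat cells (Adipoq, Plin1, Plin4, Cidec, Cfd, Lep, Retn, and Fabp4) and 2 of brown fat cells (Ucp1 and Cidea). They are all the listed genes found by name among the probes that are not controls, 15 probes of 56605, and 10 of the 37028 genes tested. They were chosen because their signals on these same arrays differ from kidney to kidney, so their values are given as a description and no p-value is attached to them. The left kidneys of 6 male mice, taken at 8 weeks of age after a 20 h fast, gave RNA for 6 Agilent arrays of one color, 1 per mouse. Of these, 3 were WT mice of the strain C57BL/6J (replicates 2 to 4) and 3 were Selenbp1-KO mice (replicates 1 to 3), labeled with the same strain and lacking selenium-binding protein 1 (Selenbp1). WT mice came from a supplier and Selenbp1-KO mice from an established line, so the genotype and the origin of the mice cannot be told apart. No source used here says whether fat was trimmed from the kidney before extraction.

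White fat cells store triglyceride in a single large droplet coated by perilipins and release hormones such as leptin and adiponectin. Brown fat cells hold many small droplets and many mitochondria, and burn fatty acids as heat through uncoupling protein 1. In the mouse, fat lies around the kidney and at its hilum, and the fat nearest the hilum has brown features.

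The signals come from 60-base probes, and 4 are shown because the results turn on them: Adipoq follows the white fat genes most closely, Retn has the largest difference between genotypes of the 10, Ucp1 varies most, and Lep varies least.
Adipoq probe, chr16:23157576-23157635 of mm9, plus strand: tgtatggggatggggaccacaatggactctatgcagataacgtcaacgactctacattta
Retn probe, chr8:3657312-3657371 of mm9, plus strand: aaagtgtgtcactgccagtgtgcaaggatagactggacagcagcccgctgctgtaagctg
Ucp1 probe, chr8:85821788-85821847 of mm9, plus strand: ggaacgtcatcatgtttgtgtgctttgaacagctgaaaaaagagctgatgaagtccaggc
Lep probe, chr6:29020910-29020969 of mm9, plus strand: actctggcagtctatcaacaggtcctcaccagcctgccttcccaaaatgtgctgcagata
RefSeq promoters (GRCm38.p6, 250 bases before to 50 after the annotated start) were given for 8 of the 10 genes. Those of Adipoq and Ucp1 are shown because one leads the white and the other the brown group. Capitals mark CCAAT on either strand in the Adipoq promoter and AGGTCA, the core of many nuclear receptor sites, in the Ucp1 promoter.
Adipoq promoter, chr16:23146286-23146585, plus strand: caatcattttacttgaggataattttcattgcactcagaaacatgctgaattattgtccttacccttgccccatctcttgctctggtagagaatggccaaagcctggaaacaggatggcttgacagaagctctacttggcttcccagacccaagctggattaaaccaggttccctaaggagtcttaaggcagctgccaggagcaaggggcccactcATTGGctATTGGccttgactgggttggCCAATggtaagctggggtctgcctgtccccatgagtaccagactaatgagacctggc
Ucp1 promoter, chr8:83290098-83290397, plus strand: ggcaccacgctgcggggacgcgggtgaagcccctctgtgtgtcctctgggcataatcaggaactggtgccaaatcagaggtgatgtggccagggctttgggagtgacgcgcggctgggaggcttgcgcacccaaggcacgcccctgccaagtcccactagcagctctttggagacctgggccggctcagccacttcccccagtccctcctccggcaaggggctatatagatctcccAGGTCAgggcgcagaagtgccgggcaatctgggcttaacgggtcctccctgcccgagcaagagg
The Adipoq window held CCAAT 3 times, and 2 of the 8 genes held it, against 37.4% of all 32851 promoters searched on both strands. AGGTCA was in 1 of the 8, Ucp1, at position −14 from the start, and in 16.3% of all promoters. A direct repeat of AGGTCA with 1 base between the copies was in none of the 8 and in 0.0396% of all. These are matches of letters in a short window and not measured sites.

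Values are log2 signals relative to the array's 75th percentile, so 0 is the signal of a fairly bright spot and 1 unit is a 2-fold difference. Signals of different genes come from different probes and are not set against each other. Selenbp1 was 7.02 to 7.07 on the WT arrays and 3.98 to 4.13 on the Selenbp1-KO arrays, so each label has the genotype that its Selenbp1 signal shows. The 75th percentile of the signal was 477 to 751, and 51.8% to 55.5% of spots were well above background, with none saturated. All 10 kidney tubule markers were well above background on all 6 arrays, and their mean level differed by no more than 1.08-fold between any arrays. Among them, the kidney androgen-regulated protein gene Kap read 8.35 to 8.83 and the proximal tubule receptor Lrp2 read 5.85 to 6.24. All 10 fat genes were also well above background on all 6 arrays, so each of them was detected in every kidney.

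Values are given for the replicates in the order of their numbers. Among the hormones and secreted proteins of white fat, Adipoq (NM_009605, adiponectin) read 0.55, 1.05, and −0.62 in WT replicates 2 to 4. In Selenbp1-KO replicates 1 to 3 it read 1.66, 2.70, and 0.19. The highest kidney was Selenbp1-KO replicate 2 and the lowest WT replicate 4, 9.97-fold apart, and the genotypes overlapped because Selenbp1-KO replicate 3 lay below WT replicates 2 and 3. WT averaged 0.33 ± 0.86 (SD, n = 3), Selenbp1-KO averaged 1.51 ± 1.26 (SD, n = 3), and the difference was 1.19 with a standard error of 0.73.

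Retn (NM_001204959, resistin, a hormone of mouse fat cells) read −0.51, 0.30, and −1.66 in WT replicates 2 to 4, against 1.05, 2.07, and −0.18 in Selenbp1-KO replicates 1 to 3. The same kidneys were highest and lowest as for Adipoq. The genotypes overlapped only through Selenbp1-KO replicate 3, which lay between WT replicates 2 and 3. The difference of the means was 1.60 (standard error 0.71), and a second probe of Retn gave 1.62.

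Cfd (NM_013459, chromosome 10 of mm9, 79355302 to 79355361) encodes adipsin, the protease that starts the alternative complement pathway by cutting factor B. It read 4.27, 5.21, and 3.21 in WT replicates 2 to 4, against 5.21, 6.53, and 4.09 in Selenbp1-KO replicates 1 to 3. WT replicate 3 and Selenbp1-KO replicate 1 could not be separated at this rounding, and Selenbp1-KO replicate 3 lay below WT replicate 2. The means differed by 1.05 (standard error 0.76), with 1.07 from a second probe, and the extreme kidneys lay 3.33 units apart.

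Lep (NM_008493, leptin, the hormone that reports fat stores to the brain) was the exception. It read −2.30, −1.96, and −2.16 in WT replicates 2 to 4, against −1.89, −1.96, and −2.12 in Selenbp1-KO replicates 1 to 3. All 6 kidneys lay within 1.33-fold of each other, the highest was Selenbp1-KO replicate 1, and the means differed by 0.15 (standard error 0.13). Lep varied within genotypes about as much as other genes did, with a pooled SD of 0.15 against a median of 0.12 over 19260 genes well above background.

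Of the genes that coat or shape the fat droplet, Cidec (NM_178373, chromosome 6 of mm9, 113374693 to 113374752), whose protein fuses small droplets into larger ones, read 2.49, 2.98, and 1.04 in WT replicates 2 to 4. In Selenbp1-KO replicates 1 to 3 it read 3.01, 4.21, and 1.63. WT replicate 3 and Selenbp1-KO replicate 1 were 0.03 apart, while the kidneys at the extremes were 9.00-fold apart. The means differed by 0.78 (standard error 0.78).

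Plin1 (NM_175640, chromosome 7 of mm9, 86866112 to 86866171), the perilipin that guards the droplet of fat cells, read −1.84, −1.93, and −2.18 in WT replicates 2 to 4. In Selenbp1-KO replicates 1 to 3 it read −0.70, −0.37, and −2.65. The WT kidneys lay close together, with an SD of 0.18, whereas the Selenbp1-KO kidneys held both the highest and the lowest of the 6 and had an SD of 1.23. The means differed by 0.74 (standard error 0.59), and neither of its further probes stood well above background in a WT kidney.

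Plin4 (NM_020568, chromosome 17 of mm9, 56240055 to 56240114), another droplet coat protein, read 0.17, 0.43, and −0.91 in WT replicates 2 to 4, against 0.28, 1.20, and −0.71 in Selenbp1-KO replicates 1 to 3. Apart from Selenbp1-KO replicate 2, every Selenbp1-KO kidney lay within the WT range. Its difference of 0.36 (standard error 0.57) turned to −0.11 without that kidney. Fabp4 (NM_024406, chromosome 3 of mm9, 10204452 to 10204511), the fatty acid carrier of fat cells, which capillary endothelium also makes, read 4.32, 4.59, and 3.80 in WT and 5.23, 5.68, and 4.05 in Selenbp1-KO in the same order. Its difference was 0.75 (standard error 0.45), and a second probe gave 0.80. The Selenbp1-KO kidneys 1 and 2 were above all WT kidneys, and kidney 3 was not.

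The brown fat genes had the largest pooled SD within genotypes of the 10. Ucp1 (NM_009463), the uncoupling protein that makes heat in brown fat mitochondria, read 0.39, 0.02, and −1.32 in WT replicates 2 to 4, against 1.29, 2.06, and −3.42 in Selenbp1-KO replicates 1 to 3. Selenbp1-KO replicates 1 and 2 were the highest of the 6 and Selenbp1-KO replicate 3 the lowest, so the 44.8-fold range lay wholly within Selenbp1-KO, against 3.29-fold within WT. The means differed by 0.28 with a standard error of 1.47.

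Cidea (NM_007702, chromosome 18 of mm9, 67527351 to 67527410), the droplet fusion protein of brown fat, read 2.56, 2.37, and 1.35 in WT replicates 2 to 4. In Selenbp1-KO replicates 1 to 3 it read 3.30, 3.59, and −0.09. Its kidneys stood in the same order as those of Ucp1, with Selenbp1-KO replicate 3 last and 12.8-fold below Selenbp1-KO replicate 2. The means differed by 0.17 (standard error 1.02), and the correlation of Ucp1 with Cidea over the 6 arrays was 0.998, a description with no test.

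**Figure D1:**
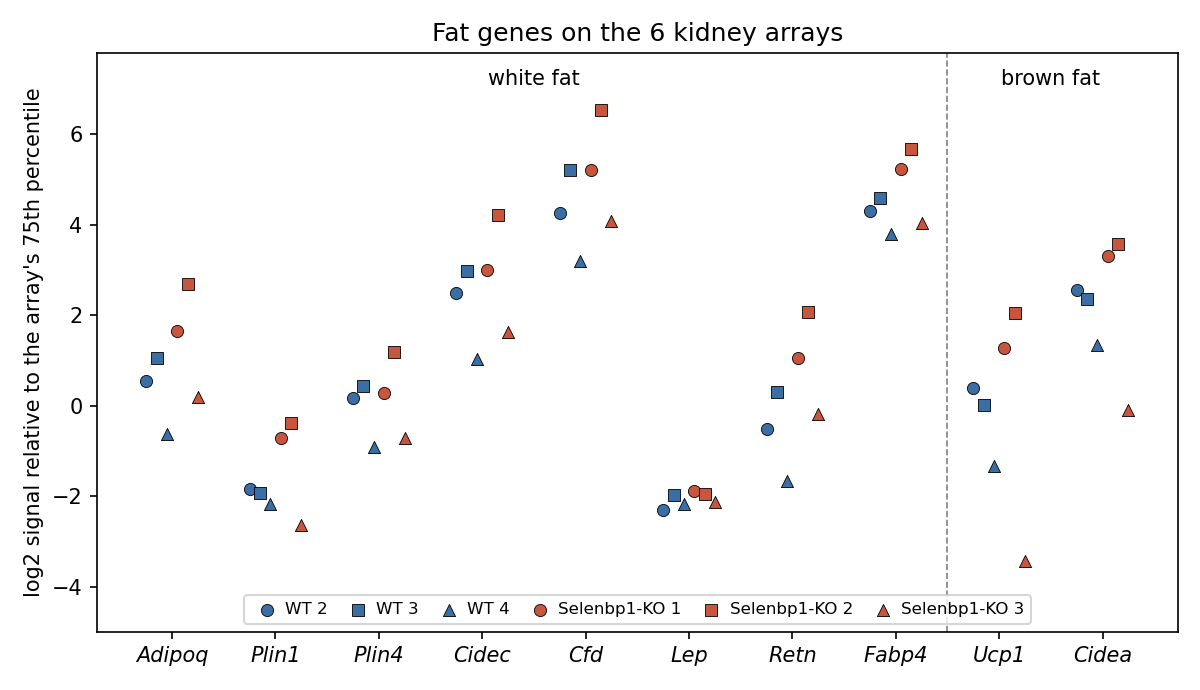
Log2 signal relative to the array's 75th percentile (vertical axis) of the 8 white and 2 brown fat genes (horizontal axis), 1 point per kidney, blue for WT and red for Selenbp1-KO, with the marker giving the replicate. Selenbp1-KO replicate 2 is the highest point for 7 of 8 white and both brown genes, Lep is nearly level, and Selenbp1-KO replicate 3 is far below the rest for Ucp1 and Cidea.

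In bulk tissue, more cells of a type and more RNA per cell cannot be told apart, and this holds for every value here. All 10 genes had a higher mean in Selenbp1-KO, by 0.15 to 1.60, but 0 of the 10 were separated between genotypes without overlap, and 14.1% of all genes were. None of the 10 passed limma's unadjusted p under 0.05, which 8.40% of all genes passed (7.14% higher and 1.26% lower in Selenbp1-KO). Without Selenbp1-KO replicate 3, 6 of the 10 passed, where 6.85% of all genes did. Retn alone passed under normexp background correction, with the slide row as a block, and without WT replicate 3. Nothing is read from these counts because the genes were chosen on these arrays. The share of called genes that were higher was 85.0%, and 58.9% under quantile normalization and 40.3% with the slide row as a block. All 10 fat genes had a higher mean in Selenbp1-KO in these 3 fits. The slide-row fit sets the Selenbp1-KO kidneys against WT replicate 4 alone. That kidney was the lowest of all 6 for 6 of the 8 white fat genes, so this fit is no separate check. With the replicate number as a block, 7 of the 10 had a higher mean in Selenbp1-KO. WT replicate 4 and Selenbp1-KO replicate 1 share no number and do not enter that difference. Without WT replicate 4, 7 of the 10 had a higher mean in Selenbp1-KO. Without Selenbp1-KO replicate 1, 8 had, and without Selenbp1-KO replicate 2, 7 had. The spread within genotypes was large: the pooled SD was 2.19 for Ucp1, 1.52 for Cidea, and 0.66 to 1.16 for the white fat genes other than Lep. For Fabp4, the least variable of these 9, 98.7% of the 19260 genes well above background had a smaller SD, and for Ucp1 99.9% had. The genes were chosen because they differ between these kidneys, so nothing is read from these ranks either.

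A score per kidney was formed as the mean over genes of the log2 signal minus the gene's mean over the 6 arrays. The white fat score was −0.28, 0.16, and −1.11 in WT replicates 2 to 4, against 0.55, 1.33, and −0.64 in Selenbp1-KO replicates 1 to 3. The highest kidney was 5.44-fold above the lowest. WT replicate 4 was lowest of all 6 for 6 of the 8 white genes, and Selenbp1-KO replicate 3 was the lowest of its genotype for 8 of 8. The genotypes differed by 0.83 with a pooled SD of 0.84, and by 0.72 to 0.92 when each gene was left out in turn.

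The brown fat score was 0.47, 0.19, and −0.99 in WT replicates 2 to 4, against 1.29, 1.82, and −2.76 in Selenbp1-KO replicates 1 to 3, a range of 23.9-fold. The genotypes differed by 0.23 with a pooled SD of 1.85. The white and brown scores correlated over the 6 arrays at r = 0.81 and over the 5 arrays without Selenbp1-KO replicate 3 at r = 0.96, given as descriptions, since both scores read the same RNA of each kidney. Both scores kept the same highest and lowest kidney under quantile normalization, median scaling, normexp background correction, the authors' value table, and averaging of all probes per gene.

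The kidneys with little white fat signal were not alike in brown fat signal. Selenbp1-KO replicate 3 exceeded WT replicate 4 in 7 of the 8 white fat genes, by 0.82 for Adipoq and 1.48 for Retn, with Plin1 the exception at −0.47. It fell below WT replicate 4 in both brown fat genes, with differences of −2.10 for Ucp1 and −1.44 for Cidea. The brown score minus the white score was 0.03 to 0.75 in the other 5 kidneys and −2.12 in Selenbp1-KO replicate 3. This contrast is between 1 kidney and 1 kidney and has no replicate.

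**Figure D2:**
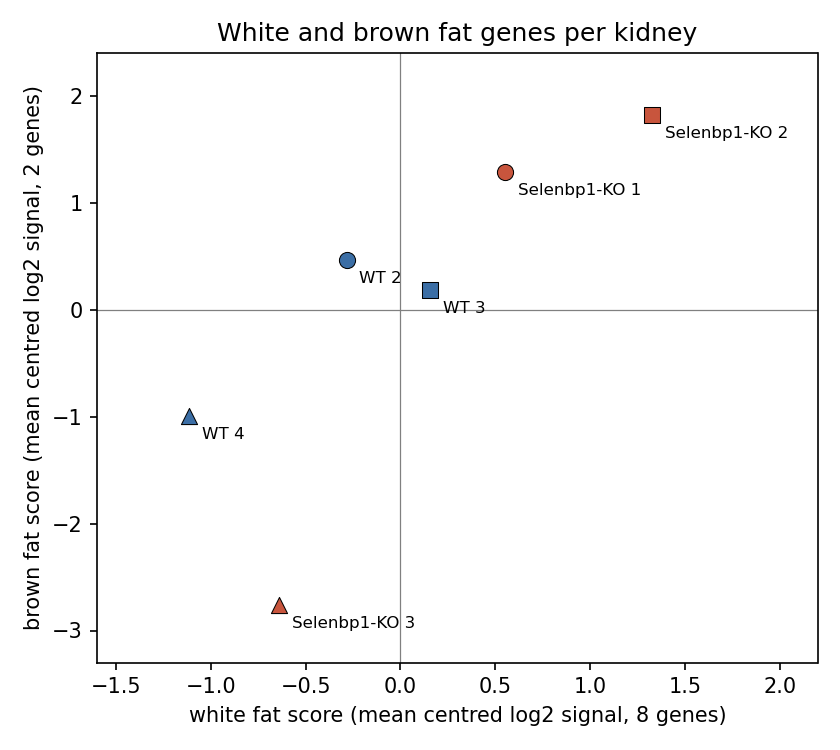
White fat score (horizontal axis, 8 genes) against brown fat score (vertical axis, 2 genes), both as mean centred log2 signal, with 1 labeled point per kidney, blue for WT and red for Selenbp1-KO. WT replicate 4 is low and Selenbp1-KO replicates 1 and 2 are high on both axes, WT replicates 2 and 3 lie between, and Selenbp1-KO replicate 3 lies below the others at −0.64 and −2.76.

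Set against the white fat score formed without itself, each of Adipoq, Fabp4, Cfd, Cidec, Retn, and Plin4 correlated at 0.94 to 0.997 over the 6 arrays. Plin1 stood at 0.86 with the white score and 0.91 with the brown score, Ucp1 and Cidea at 0.81 and 0.80 with the white score, and Lep at 0.68.

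Of 1442 other genes that were well above background and ranged by at least 1 unit over the arrays, the 10 most like the white fat score were Mrap, Adig, Ccdc80, Adrb3, Mmp19, Chst12, Slc1a3, Car3, Pparg, and Efs, with r of 0.97 to 0.99 over 6 arrays. Known fat cell genes were among them. Pparg is the nuclear receptor that drives fat cell formation, Adig (adipogenin) and Car3 (carbonic anhydrase 3) are abundant in fat, Adrb3 is the adrenergic receptor of fat cells, and Mrap is an accessory protein of the corticotropin receptor. Adig read −0.92, −0.25, and −1.72 in WT replicates 2 to 4, against 0.52, 1.36, and −0.91 in Selenbp1-KO replicates 1 to 3, an 8.44-fold range. Pparg read 0.07, 0.40, and −0.27 in WT and 0.46, 1.21, and −0.23 in Selenbp1-KO in the same order, with a range of 2.80-fold. Not every fat cell gene followed the score. Of 23 listed adipocyte genes well above background, Angptl4, Klf15, Acsl1, and Mest correlated with it at −0.76, −0.72, −0.62, and −0.29. Each of these ranged by less than 1 unit, so the ranking left them out. The rest of the list correlated positively, from 0.18 for Npr3 to 0.99 for Adig. Of the 1442 genes, 22 had an r of at least 0.95 and 3 had an r of at most −0.95.

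The same ranking against the brown fat score, added after its values were seen, was led by Slc36a2, Cox8b, and Kcnk3, each at r = 0.99, the only 3 genes with an r of at least 0.95. Slc36a2 is an amino acid transporter found on brown fat cells, Cox8b is a cytochrome oxidase subunit of brown fat and muscle, and Kcnk3 is a potassium channel of brown fat. Cox8b read 2.02, 2.24, and 0.90 in WT replicates 2 to 4, against 2.89, 3.48, and −0.01 in Selenbp1-KO replicates 1 to 3. As with Ucp1, Selenbp1-KO replicate 3 was lowest, and it lay 11.3-fold below Selenbp1-KO replicate 2 for Cox8b, 10.9-fold for Slc36a2, and 9.74-fold for Kcnk3. The top 10 genes of the 2 rankings shared 0 genes. The brown ranking also held Scd1 and Thrsp, genes of fat synthesis, at 0.946 and 0.92. With the white score Scd1 correlated at 0.85 and Thrsp at 0.96, so Thrsp was not particular to the brown score.

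**Figure D3:**
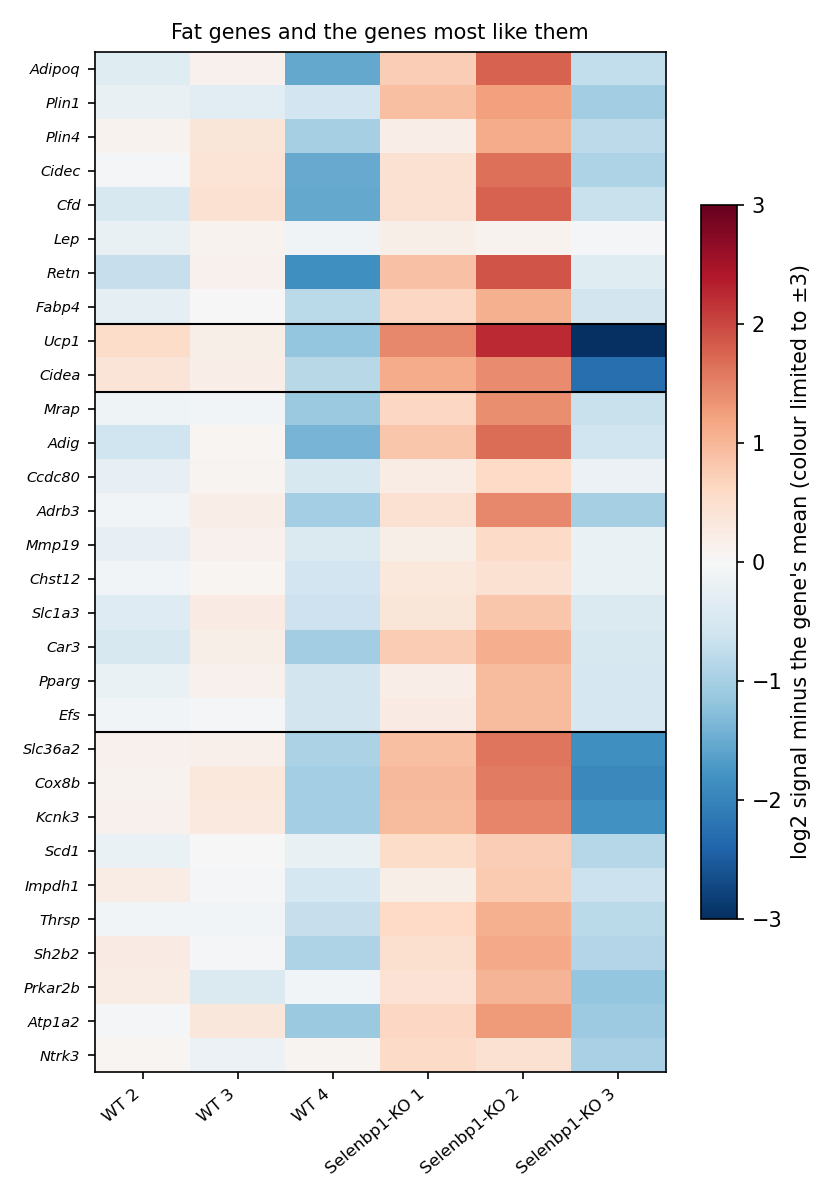
Log2 signal minus the gene's mean over the 6 arrays (colour, limited to ±3) in each kidney (columns) for the 8 white and 2 brown fat genes, the 10 genes most like the white fat score, and the 10 most like the brown fat score (rows, in that order, black lines between the groups). The brown fat genes and most of the last block are darkest blue in Selenbp1-KO replicate 3, whereas most of the white block is bluest in WT replicate 4.

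Other genes of fat were described from 6 lists that hold 99 genes on the array, 80 of them well above background in all 3 kidneys of 1 genotype or both. At limma's unadjusted p under 0.05, 10 were higher and 0 lower in Selenbp1-KO, and 0 passed after adjustment over all genes, which 0.0054% of all genes did. Without WT replicate 4, 8624 genes passed the adjusted threshold in place of 2, and 129 did with a trended and robust fit of all 6 arrays. The WT arrays left without WT replicate 4 share no slide row with the Selenbp1-KO arrays. In that fit genotype and slide row cannot be told apart. Under quantile normalization 8 were higher and 2 lower, and with the slide row as a block 6 were higher and 3 lower. Of the 80, 6 were called, or 7.5%, against 6.55% of the 19263 genes that met the same condition, and the median difference was 0.09 against 0.02. Among 23 adipocyte genes of these 80, Sfrp5, a secreted Wnt inhibitor of fat cells, was higher in Selenbp1-KO by 0.87 (standard error 0.24, adjusted p = 0.266 from limma). The other one called, Pnpla3, was well above background in only 1 WT kidney and so entered this group through its Selenbp1-KO level, and it was called under 9 of 18 alternatives. Sfrp5 was separated without overlap, at −2.59, −1.80, and −2.51 in WT and −1.56, −1.22, and −1.51 in Selenbp1-KO.

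Of 17 droplet and lipolysis genes, 1 was higher in Selenbp1-KO, Gpihbp1, which carries lipoprotein lipase to the capillary wall, by 0.40 (standard error 0.12, adjusted p = 0.266 from limma). The droplet coat genes Plin2 and Plin5, which many tissues use, spanned 1.35-fold and 1.38-fold over the 6 kidneys, against 4.83-fold for Plin1. None of 18 synthesis genes was called, and 0 of them separated without overlap. Of all genes well above background 6.55% were called, beside 5.88% of the droplet and lipolysis genes, and 14.1% of all genes separated. Nothing is read from these counts. Thrsp, a regulator of fat synthesis, and Scd1, the fatty acid desaturase, had the widest ranges, 3.67-fold and 3.01-fold, with Selenbp1-KO replicate 2 highest and replicate 3 lowest for both. The synthesis score correlated with the brown score at 0.97 and with the white score at 0.84 over the same 6 arrays.

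Of 24 other brown and beige fat genes, 16 were well above background, and of these 1 was higher in Selenbp1-KO: Cox7a1, a cytochrome oxidase subunit of muscle and brown fat, by 0.37 (standard error 0.12, adjusted p = 0.266 from limma). That is 6.25% of the 16, beside 6.55% of all genes well above background. Of both others called, Otop1 was well above background in 1 WT and 2 Selenbp1-KO kidneys, and Bmp8b in no kidney. Dio2, Elovl3, and Zic1 were not well above background on any array. Prdm16 and Ppargc1a, regulators of brown fat that other tissues also use, differed by −0.12 and −0.25, and correlated with the brown score at 0.42 and −0.75.

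Among receptors and partners of the secreted fat genes, Lepr, the leptin receptor, was higher in Selenbp1-KO by 0.54 (standard error 0.14, adjusted p = 0.266 from limma). It read 0.79, 0.91, and 1.23 in WT replicates 2 to 4, against 1.54, 1.40, and 1.61 in Selenbp1-KO replicates 1 to 3, so the genotypes did not overlap and Selenbp1-KO replicate 3 was the highest kidney. Its correlation with the white fat score was 0.16. C3, the complement protein that adipsin helps to activate, was higher by 0.56 (standard error 0.19, adjusted p = 0.266 from limma). The adiponectin receptors Adipor1 and Adipor2 differed by 0.12 and −0.03 and were not called. In the fatty acid binding protein family, Fabp3, Fabp5, and Fabp7 differed by −0.04, 0.26, and 0.32 and were not called. Of both genes called, Fabp6 stood well above background in no WT kidney and in 2 Selenbp1-KO kidneys, and Fabp12 in no kidney.

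Fat carries connective tissue, vessels, macrophages, and a mesothelial sheet, so lists of these were read beside the fat genes. Of 15 genes listed for the stroma and preadipocytes of fat, 9 were higher in Selenbp1-KO at limma's unadjusted p under 0.05 and 0 lower. Over all genes 7.14% were called higher and 1.26% lower. Of the 15, 10 separated without overlap, against 14.1% of all genes. These signals cannot tell the stroma of fat from other connective tissue of the kidney. The lists were chosen with these values known. The stroma score was −0.38, −0.19, and −0.43 in WT replicates 2 to 4, against 0.20, 0.57, and 0.22 in Selenbp1-KO replicates 1 to 3. Selenbp1-KO replicate 3, low in every fat gene within its genotype, was level with replicate 1 here. Pi16, a marker of fibroblasts in fascia and around vessels, read −0.12, 0.07, and −0.16 in WT and 0.88, 1.52, and 0.98 in Selenbp1-KO, a difference of 1.20 (standard error 0.19, adjusted p = 0.266 from limma). Igfbp6 differed by 1.82 (standard error 0.34) and Mfap5 by 1.40 (standard error 0.27). Pdgfra, Dlk1, and Dpp4 differed by 0.07, −0.02, and −0.03 and were not called.

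Of 12 macrophage genes, 8 were higher in Selenbp1-KO and 0 lower, beside the same 7.14% and 1.26% of all genes. One of the 8, Cd163, was well above background in only 2 WT kidneys. The macrophage score ran from −0.58 to −0.25 in WT and from 0.26 to 0.45 in Selenbp1-KO. Retnla, a protein of alternatively activated macrophages, averaged −2.18 ± 1.37 in WT kidneys against 0.23 ± 0.43 in Selenbp1-KO kidneys (SD, n = 3 for both). Of 9 mesothelium genes on the array, Slpi, a protease inhibitor that injured tubules also make, and Lrrn4, which was well above background in no kidney, were called. The mesothelium score separated by genotype through Slpi alone: without it, in a score added after its values were seen, the WT kidneys stood at −0.04, −0.15, and −0.17 and the Selenbp1-KO kidneys at 0.14, 0.46, and −0.24. The correlation with the white fat score differed widely among the list's 7 well measured genes, from −0.38 for Gpm6a and 0.01 for Wt1 to 0.93 for Krt19 and 0.95 for Upk1b, both of which urothelium also makes. Stroma and macrophage scores correlated with the white score at 0.74 and 0.72 and with the brown score at 0.27 and 0.29, over 6 arrays that also differ by genotype. The part of attached tissue in the difference between genotypes was not tested.

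**Figure D4:**
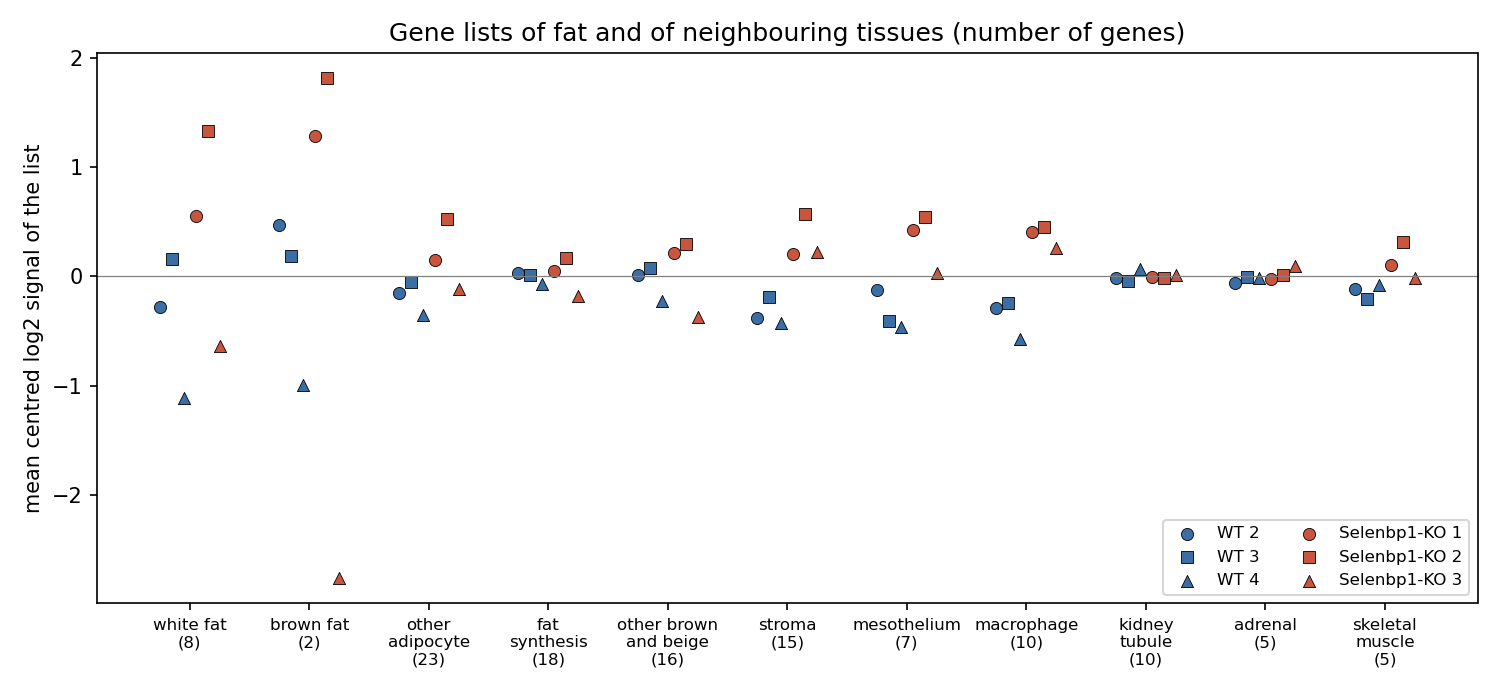
Mean centred log2 signal of each gene list (vertical axis; the number of genes in parentheses) in the 6 kidneys, 1 point per kidney, blue for WT and red for Selenbp1-KO, with the marker giving the replicate. The kidneys spread widely for white and brown fat with the genotypes mixed, separate by genotype for stroma and macrophages, and for mesothelium through Slpi alone, and lie together for kidney tubule and adrenal genes.

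Values and counts depended on single kidneys. Without Selenbp1-KO replicate 3, the brown fat difference was 1.67 in place of 0.23, that of Adipoq 1.85 in place of 1.19, and that of Ucp1 1.98 in place of 0.28. Without Selenbp1-KO replicate 2, the white fat difference was 0.37 and the brown fat difference −0.62. Of 99 genes in the 6 lists of other fat genes, 10 were called with all arrays, where 8.40% of all genes were. Without Selenbp1-KO replicate 3, 23 were called, where 6.85% of all genes were. The counts over all 37028 genes also fell in the other fits. Without Selenbp1-KO replicate 1, 6 list genes were called beside 2168 of all genes. Without Selenbp1-KO replicate 2 it was 5 beside 1878, and without WT replicate 2 it was 4 beside 1359. WT replicates 2 and 3 lie in 1 row of the slide and WT replicate 4 in the other row with all Selenbp1-KO arrays. Within that row, where WT is 1 kidney, the white fat difference was 1.53.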

How the data were processed

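Per the file headers, the authors scanned 6 one-color arrays with Agilent Feature Extraction 10.7.1.1 (9.5.1.1 in the submitters' processing notes) and deposited linear intensities, background-subtracted and detrended within each array, with a p-value of each spot against its background. The authors' value table holds 1 intensity per probe and ranks probes as the scanner output does. The labels and the methods name different RNA extraction kits.

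Processed signals were divided by the array's 75th percentile and put on a log2 scale. Outlier spots were left out, spots of 1 probe averaged, and probes kept with a detection p-value under 0.05 on at least 1 array. The brightest probe stood for a gene. RefSeq (GRCm38.p6) named 32994 probes, and the rest keep the file's name. Genotypes were compared over 37028 genes with R 4.3.3 and limma 3.58.1 (two-sided moderated test), at the methods' threshold of an unadjusted p under 0.05, with Benjamini-Hochberg values beside it. With 3 arrays a genotype, 1 mouse each, p-values measure the spread between these mice, and the number of arrays limits the precision.

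The fat genes and all gene lists were chosen with earlier results of these data known. Named genes are the 10 fat genes, genes of the lists (those called, those widest in range, and others with a known role), and the 10 genes most like the white fat score. The brown ranking was added after its values were seen. No set test was made. The fit was checked on simulated data with 200 changed genes. Alternatives were quantile, median, and normexp (offset 50) processing, the authors' values, other filters, outlier spots kept, a trended and robust limma fit (statmod 1.5.0), the methods' t-test, slide row and replicate number as blocks, the mean of all probes, and each array left out.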

Additional observations from a re-analysis of the deposited data

How the results depend on the processing

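Over all genes, 3110 were called, against 9928 with median scaling, 5113 with a trended and robust limma fit, and 1359 to 11965 with each array left out in turn. The methods' t-test called 2857 at their threshold and 2 after Benjamini-Hochberg adjustment, none of them a fat gene of the 10. The lowest count came without WT replicate 2 and the highest without WT replicate 4, where genotype and slide row cannot be told apart. Leaving out WT replicate 3 gave 1788 and leaving out Selenbp1-KO replicate 2 gave 1878. Under quantile normalization 58.9% of the called genes were higher in Selenbp1-KO, against 85.0%, and the median difference of all genes moved from 0.13 to 0.01. In the 6 lists of fat genes 10 were called, and 4 to 23 with each array left out. The stroma count of 9 stayed at 8 or 9 under all 18 alternatives. The white fat difference of 0.83 stayed above 0 in all 14 alternatives that give a score (0.37 to 1.53; 0.37 to 1.35 with each array left out). The brown fat difference of 0.23 fell below 0 in 4 of 14 (−0.80 to 1.67), and those of Ucp1 and Cidea in 4 and of Plin4 in 3. The cause of these changes was not tested.

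The labels number WT replicates 2 to 4 and Selenbp1-KO replicates 1 to 3, so only 2 numbers are shared. With the replicate number as a block, 12397 genes were called, 0 of them after adjustment, and the white and brown fat differences were 0.41 and −0.80. These differences rest on the 2 shared numbers, since WT replicate 4 and Selenbp1-KO replicate 1 have no partner and do not enter them. The deviations of same-numbered kidneys correlated at 0.19 and 0.18, the highest values among all pairs of a WT and a Selenbp1-KO kidney. The other pairs ran from −0.29 to 0.14. No source says that the numbers pair the mice, and whether they do was not tested.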

Other observations

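Tissues that lie near or within perirenal fat were also read, beside 6.55% called among all genes well above background. Of 10 adrenal genes on the array, 5 rose well above background in all kidneys of a genotype, 0 were called by limma's unadjusted p under 0.05 in either direction, and the steroid enzymes Cyp11a1, Cyp11b1, and Cyp11b2 stood well above background in no kidney. The adrenal score spanned 1.11-fold over the 6 kidneys. Of 10 skeletal muscle genes, 5 were well above background and 1, Pvalb, was higher in Selenbp1-KO, and the creatine kinase gene Ckm stood well above background in no kidney. Of 10 lymph node genes, 4 were well above background and 1, Cd3e of T cells, was higher in Selenbp1-KO by 0.64 (standard error 0.23, adjusted p = 0.266 from limma). Cd3e was called under 10 of 18 alternatives, with a difference as low as 0.13, and no lymph node gene was called by the methods' t-test or without WT replicate 3, Selenbp1-KO replicate 2, or Selenbp1-KO replicate 3.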
